A study of Mus musculus with 12 samples.

Results

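The 6 genes described here are those picked out of liver RNA-seq counts for the clearest slopes on curcumin dose: Ppat, Rasgef1b and Tmem50a, which were higher at higher doses, and Slc35d2, Apobec1 and Pheta1, which were lower. Each symbol matched 1 Ensembl ID, so the set is 6 of 56923 rows of the count table and 6 of the 16839 genes that passed the filter on low counts. The values that chose them are the dose slopes themselves, so their differences between doses are given as a description, with no test read from them.

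The libraries came from livers of 12 wild-type C57BL/6J mice, 3 in each of 4 groups, given as biological replicates. Every mouse, controls included, started at 6 weeks of age and had carbon tetrachloride (CCl4), a liver toxin used to bring on fibrosis, injected into the peritoneum 2 times a week for 6 weeks (200 µL at 7.5%, in olive oil). Controls are labelled by CCl4 alone. The low, medium and high groups were also gavaged every day for 2 weeks with curcumin, the yellow polyphenol of turmeric, at 25, 50 or 100 mg/kg. No liver without CCl4 was analysed here, the labels do not say whether controls had a gavage without curcumin, and mice were housed 3 to a cage, so cage and group may coincide.

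The 6 genes have separate jobs. Ppat encodes amidophosphoribosyltransferase, which catalyses the committed first step of de novo purine synthesis, a pathway that runs at a high rate in liver. Rasgef1b encodes a guanine nucleotide exchange factor, a protein that loads small RAS-like GTPases with GTP, and in mouse macrophages its transcript is induced by Toll-like receptor ligands. Tmem50a encodes a small protein with several membrane-spanning stretches whose function is little characterised. Slc35d2 encodes a Golgi transporter of sugar nucleotides, studied mainly in human cells, where it carries UDP-N-acetylglucosamine into the Golgi lumen for glycan building. Apobec1 encodes the cytidine deaminase that edits the apolipoprotein B transcript from C to U, a reaction that takes place in mouse liver as well as in intestine. Pheta1 encodes an endosomal adaptor that, in human cells, binds the inositol phosphatase OCRL and takes part in receptor recycling.

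RefSeq promoter windows (GRCm38.p6, 250 bases before to 50 after the annotated start, written 5′ to 3′ on the gene's strand) were matched for 4 of the 6 genes, and are shown so that the start regions of 2 higher genes (Ppat and Rasgef1b) and 2 lower ones (Apobec1 and Pheta1) can be compared. The Ppat window is chr5:76951529-76951828 on the minus strand, that of Rasgef1b is chr5:99252878-99253177 on the minus strand, that of Apobec1 is chr6:122602395-122602694 on the minus strand and that of Pheta1 is chr5:121848747-121849046 on the plus strand. Capitals mark matches, on either strand, to a panel of 6 motifs chosen after the windows were seen. These were the GC box, searched as GGGCGG, and the sequence element named after its letters CCAAT. The panel also held the TATA element, searched as TATAAA, as well as the E-box, for which the search used CACGTG, and the core of NRF1 binding sequences, searched as GCGCATGC. The last was a kappa B-like sequence of 3 G, any 2 bases, 3 T and 2 C. No marked match overlaps another.
Ppat: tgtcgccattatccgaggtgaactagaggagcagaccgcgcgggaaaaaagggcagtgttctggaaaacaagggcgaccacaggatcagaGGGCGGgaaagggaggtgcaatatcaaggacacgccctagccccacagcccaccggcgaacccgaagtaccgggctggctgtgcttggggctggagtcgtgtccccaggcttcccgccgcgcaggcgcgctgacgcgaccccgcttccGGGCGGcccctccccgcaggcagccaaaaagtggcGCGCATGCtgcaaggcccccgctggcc
Rasgef1b: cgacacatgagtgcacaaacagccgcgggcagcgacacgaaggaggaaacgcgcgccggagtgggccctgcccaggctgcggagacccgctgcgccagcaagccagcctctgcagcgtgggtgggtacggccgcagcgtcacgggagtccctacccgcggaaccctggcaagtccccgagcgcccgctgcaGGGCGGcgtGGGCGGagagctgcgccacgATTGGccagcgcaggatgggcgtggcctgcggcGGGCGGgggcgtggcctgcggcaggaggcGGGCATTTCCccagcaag
Apobec1: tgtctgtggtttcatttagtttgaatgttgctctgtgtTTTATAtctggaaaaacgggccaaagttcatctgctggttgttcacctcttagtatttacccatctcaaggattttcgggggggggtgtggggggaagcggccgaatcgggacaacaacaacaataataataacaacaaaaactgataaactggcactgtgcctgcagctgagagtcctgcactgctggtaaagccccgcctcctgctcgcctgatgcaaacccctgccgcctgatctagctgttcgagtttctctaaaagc
Pheta1: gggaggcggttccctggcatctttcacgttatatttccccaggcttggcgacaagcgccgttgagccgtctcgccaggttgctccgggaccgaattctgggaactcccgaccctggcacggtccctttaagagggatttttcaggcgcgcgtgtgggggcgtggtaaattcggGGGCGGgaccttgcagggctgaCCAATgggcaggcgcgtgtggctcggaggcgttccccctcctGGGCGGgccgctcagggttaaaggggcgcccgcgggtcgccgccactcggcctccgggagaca
The Ppat, Rasgef1b and Pheta1 windows are rich in G and C (66.7%, 73.3% and 66.7%, against a median of 52.7% over all 32851 windows) and hold 27, 35 and 30 CG pairs, against a median of 7. The Apobec1 window has 48.3% G and C and 9 CG pairs. GGGCGG occurs in 3 of the 4 windows and in 35.7% of all windows, and CCAAT in 2 of the 4 and in 37.4% of all. GCGCATGC occurs in the Ppat window, 23 to 30 bases after the start, and in 2.71% of all. TATAAA occurs in the Apobec1 window, on the opposite strand at positions -212 to -207 from the start, and in 13.6% of all, while CACGTG, present in 7.15% of all windows, occurs in none of the 4. The kappa B-like sequence occurs in the Rasgef1b window, 32 to 41 bases after the start, and in 1.63% of all windows.

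Library totals ran from 36015134 to 70376474 counts. Mitochondrially encoded transcripts took 30.3% to 64.7% of them. Their share averaged 61.2% ± 2.81 in control livers, 56.9% ± 12.1 at the low dose, 54.7% ± 6.01 at the medium dose and 45.7% ± 17.5 at the high dose (SD, n = 3 each). Low replicate 3 (43.0%), medium replicate 1 (48.3%), high replicate 1 (30.3%) and high replicate 3 (42.1%) had the lowest shares, while high replicate 2 had the highest of all 12. Levels are given as CPM, counts divided by a library size scaled by TMM factors (trimmed mean of M-values), and these factors followed the share closely (Pearson r = -0.956, permutation p = 1e-05, the lower limit with these resamples; Spearman rho = -0.93, permutation p = 5e-05; n = 12, and r = -0.965 without the 2 libraries farthest from the median share). The factors rescale totals that include the mitochondrial counts, so this relation is largely built in and is a description. The summed level of 7 hepatocyte markers (Alb, Ttr and others) ran from 4728 CPM in low replicate 2 to 44843 CPM in high replicate 1. All 7 had a positive slope on dose. Muscle and fat markers summed to 76.2 CPM in high replicate 1 and to at most 0.282 CPM in every other library. In bulk tissue, fewer cells of a type and less RNA per cell cannot be told apart.

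The slope on dose, from edgeR's quasi-likelihood fit over all 12 libraries and printed as a log2 change over 100 mg/kg, was 1.47 ± 0.31 for Rasgef1b, 1.19 ± 0.26 for Tmem50a and 1.04 ± 0.22 for Ppat (± SE). On the other side it was -1.34 ± 0.28 for Pheta1, -1.14 ± 0.24 for Apobec1 and -1.02 ± 0.20 for Slc35d2. By p-value the 6 genes ranked 6 (Slc35d2), 12 (Ppat), 13 (Rasgef1b), 16 (Apobec1), 17 (Pheta1) and 20 (Tmem50a) among the 16839 genes tested. None passed an adjusted p of 0.05 by edgeR's quasi-likelihood test with Benjamini-Hochberg adjustment over all genes tested: each had an adjusted p of 0.291, and 0% of all genes tested passed. At an unadjusted p under 0.05 lay 6.51% of all genes on the higher and 4.49% on the lower side. DESeq2, another count test, passed 67 genes, among them all 6, at an adjusted p from 0.00063 for Slc35d2 to 0.0104 for Ppat. These 67 are 27 higher genes (0.16% of all tested) and 40 lower ones (0.238%). In simulated counts, known slopes were given only to genes averaging 1 or more in log2 CPM. Of the genes given a 2-fold change over 100 mg/kg, edgeR's test recovered 11.2%. It recovered 82.5% of those given 4-fold and 92.1% of those given 8-fold. Whether these percentages hold for the real libraries, which differ widely in mitochondrial share, was not tested.

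The choice of the 6 did not follow p-value rank alone. Among genes averaging 1 or more in log2 CPM, predicted loci left out, Ddit4, a stress-induced inhibitor of mTORC1 signalling (slope 2.23 ± 0.41, rank 4), Cebpd, a transcription factor of the acute phase response (1.14 ± 0.23, rank 8), and the RNA-binding protein gene Rbm14 (0.96 ± 0.21, rank 23) were the nearest outside the set on the higher side. On the lower side they were H2-Ob, which encodes an MHC class II accessory chain of B cells (-1.80 ± 0.38, rank 14), Abcb6, a porphyrin transporter gene (-1.36 ± 0.30, rank 21), and Kank1, a cytoskeletal scaffold gene (-1.29 ± 0.28, rank 22).

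Ppat stood at 3.75, 2.92 and 4.21 CPM in control livers, 3.24, 4.02 and 4.83 CPM at the low dose, 4.94, 3.86 and 3.72 CPM at the medium dose and 7.99, 7.68 and 6.59 CPM at the high dose. The control, low and medium libraries overlap throughout, and all 3 high libraries lie above all 9 others. The largest step between neighbouring doses was that from 50 to 100 mg/kg: the high group averaged 7.42 ± 0.736 CPM and the medium group 4.17 ± 0.669 CPM (SD, n = 3 each), while the low and control groups averaged 4.03 ± 0.797 and 3.63 ± 0.658 CPM. Relative to control the log2 fold changes were 0.16 ± 0.23 at the low, 0.20 ± 0.23 at the medium and 1.03 ± 0.23 at the high dose (± SE). High replicate 2, with the highest mitochondrial share, stood at 7.68 CPM, between the other 2 high libraries.

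Rasgef1b stood at 11.7, 7.39 and 4.93 CPM in control livers, 13.2, 8.58 and 16.2 CPM at the low dose, 15.3, 13.7 and 19.9 CPM at the medium dose and 24.3, 25.5 and 20.0 CPM at the high dose. Each group mean was above the one before it, at 8.01 ± 3.44, 12.6 ± 3.83, 16.3 ± 3.26 and 23.3 ± 2.89 CPM in dose order (SD, n = 3 each). The low group overlapped both the control and the medium group, the medium group did not overlap the control group, and the high group lay above all other libraries, by the narrow margin of 20.0 CPM in its lowest against 19.9 CPM in the highest medium library. The log2 fold changes against control were 0.66 ± 0.33, 1.02 ± 0.33 and 1.54 ± 0.33 at the low, medium and high dose (± SE). The coefficient of variation was 12.4% in the high group and 43.0% in the control group, and the slope ran from 1.25 without control replicate 3 to 1.63 without control replicate 1.

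Tmem50a stood at 9.09, 8.25 and 7.92 CPM in control livers, 9.64, 10.4 and 16.1 CPM at the low dose, 13.6, 17.7 and 19.9 CPM at the medium dose and 21.9, 19.9 and 16.9 CPM at the high dose. It was the gene of the 3 whose low-dose libraries already lay above every control, although the margin between 9.64 and 9.09 CPM was small and low replicate 3 stood apart from the other 2. Most of the difference was present by 50 mg/kg: the medium and high groups, at 17.1 ± 3.18 and 19.6 ± 2.53 CPM (SD, n = 3 each), overlapped, and the log2 fold changes against control were 0.52 ± 0.25, 1.02 ± 0.25 and 1.22 ± 0.25 in dose order (± SE). Without the control group the slope over the 3 curcumin doses was 0.85 ± 0.37 for Tmem50a, against 1.24 ± 0.30 for Ppat and 1.15 ± 0.35 for Rasgef1b.

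Slc35d2 stood at 17.8, 19.6 and 20.2 CPM in control livers, 16.5, 18.7 and 12.7 CPM at the low dose, 13.8, 16.8 and 12.2 CPM at the medium dose and 8.49, 10.1 and 9.56 CPM at the high dose. The low group overlapped the control and the medium group, the medium group lay below the control group, and all 3 high libraries lay below all 9 others. The high group averaged 9.37 ± 0.798 CPM and the control group 19.2 ± 1.26 CPM (SD, n = 3 each), a ratio of 0.488. The log2 fold changes against control were -0.27 ± 0.22, -0.43 ± 0.22 and -1.04 ± 0.22 in dose order (± SE), and no single library left out moved the slope beyond the range from -1.06 to -0.95.

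Apobec1 stood at 6.04, 9.32 and 5.82 CPM in control livers, 5.50, 3.83 and 4.98 CPM at the low dose, 4.85, 5.19 and 3.72 CPM at the medium dose and 2.66, 3.03 and 3.44 CPM at the high dose. All 9 curcumin libraries lay below all 3 controls, the low and medium groups averaged 4.77 ± 0.856 and 4.59 ± 0.767 CPM and overlapped, and the high group, at 3.04 ± 0.390 CPM, lay below every other library (SD, n = 3 each). The log2 fold changes against control were -0.57 ± 0.25, -0.62 ± 0.25 and -1.22 ± 0.26 in dose order (± SE). Control replicate 2 held the highest value, and the slope without it was -0.92 instead of -1.14. That library also had the highest summed level of macrophage and Kupffer cell markers, at 169.6 CPM against 107 and 68.2 CPM in the other controls, and of neutrophil markers, at 39.3 against 11.7 and 10.3 CPM. The same held for B and plasma cell markers, at 25.2 against 14.3 and 11.8 CPM. For T and NK cell markers the values were 4.86 against 3.57 and 1.47 CPM, again the highest of all libraries.

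Pheta1 stood at 10.8, 12.7 and 20.3 CPM in control livers, 13.3, 14.2 and 6.91 CPM at the low dose, 7.50, 9.46 and 7.90 CPM at the medium dose and 5.97, 6.95 and 4.60 CPM at the high dose. The low group overlapped every other group, since low replicate 3 lay just below the highest high-dose library. The medium group lay below the control group, and the high group below the medium and the control group. The high group averaged 5.84 ± 1.18 CPM and the control group 14.6 ± 5.02 CPM (SD, n = 3 each), with log2 fold changes against control of -0.36 ± 0.31, -0.82 ± 0.31 and -1.33 ± 0.32 in dose order (± SE). The slope ran from -1.12 without control replicate 3 to -1.50 without high replicate 2.

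**Figure D1:**
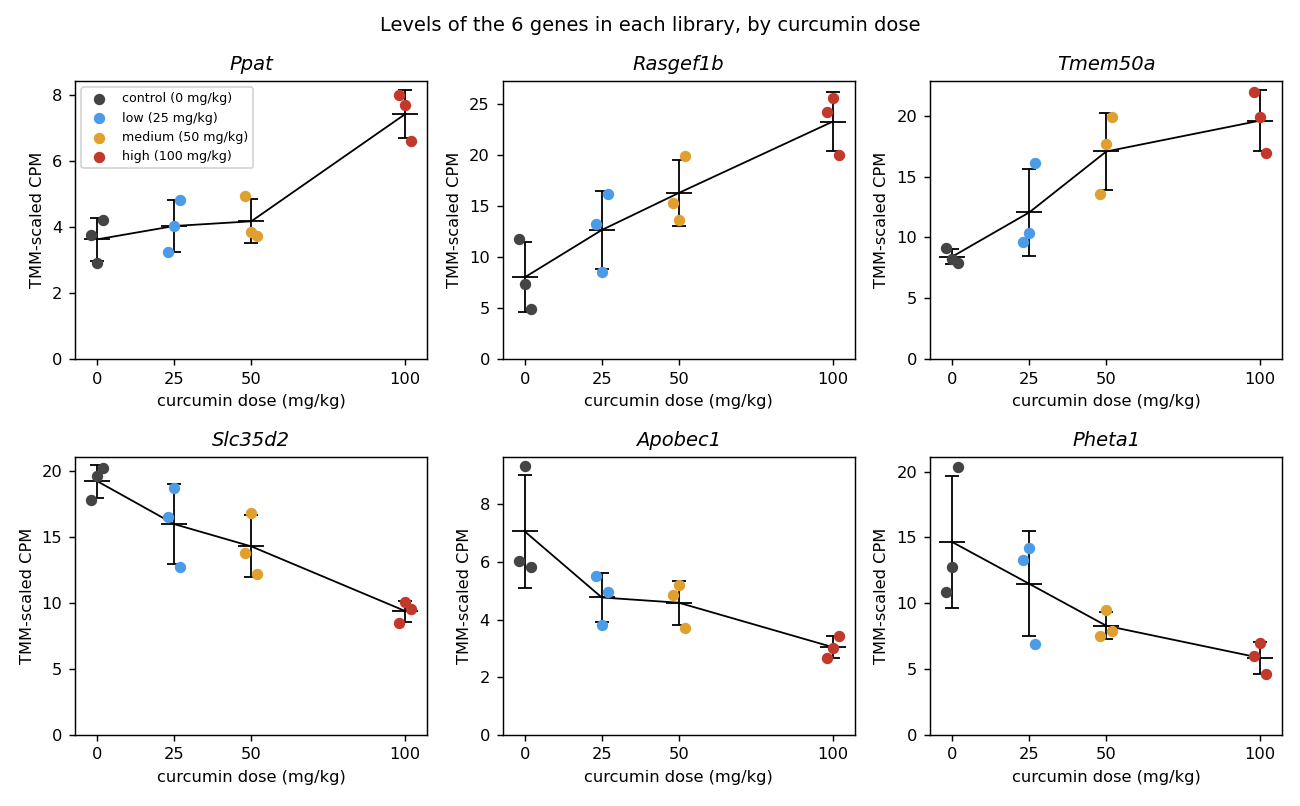
TMM-scaled CPM (y axes, from 0) of the 6 genes in each of 12 libraries against curcumin dose in mg/kg (x axes); points are libraries (shifted sideways to separate them), and lines join group means with SD bars (n = 3 each). All 3 high-dose libraries lie outside the control range for each gene, and Ppat shows its step between the medium and high doses.

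Set side by side, all 3 higher genes had high-dose libraries that did not overlap the control libraries (6.47% of all genes tested were so on the higher side), and so did all 3 lower genes (6.52% on the lower side). At the medium dose this held for Rasgef1b and Tmem50a (7.61% of all genes) and for Slc35d2, Apobec1 and Pheta1 (6.38%), and at the low dose for Tmem50a (7.41%) and Apobec1 (6.36%). Since the genes were chosen on these libraries, nothing is read from these counts. No gene of the 6 passed at any single dose against control, where the adjusted p by edgeR's quasi-likelihood test ran from 0.32 (each of them at the high dose) to 0.997 and 0% of all genes tested passed at each dose. By length, on the scale of CPM per kilobase of the longest coding transcript and as means over the 12 libraries, Tmem50a was the most abundant at 11.9, followed by Slc35d2 at 6.38, Rasgef1b at 4.51, Pheta1 at 4.25, Apobec1 at 2.15 and Ppat at 1.21. On this scale Rasgef1b was above Slc35d2 in the high group, at 6.97 and 4.07, and below it in the control group, at 2.40 and 8.34. Other pairs of a higher and a lower gene also changed order, as can follow from how the genes were chosen.

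Ratios of raw counts between a higher and a lower gene of the same library need no scaling factor. Of the 9 such ratios, 8 were larger in each high-dose library than in any of the 9 other libraries. The ratio of Ppat to Slc35d2 counts ran from 0.690 to 0.941 in high, 0.229 to 0.358 in medium, 0.196 to 0.381 in low and 0.149 to 0.211 in control livers. The ratio of Tmem50a to Apobec1 was the exception, running from 4.92 to 8.25 in high livers against 2.81 to 5.34 in medium livers. These ratios are built from the same libraries that chose the genes and are a description of them.

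The size of the slopes depended on the scale, while their sign, which the choice of genes used, did not change. With raw library totals as the scale, mitochondrial counts included, the median slope of all genes moved to 0.75 (0.03 with TMM), and the slopes of Slc35d2, Apobec1 and Pheta1 became -0.28 ± 0.41, -0.44 ± 0.50 and -0.58 ± 0.36. Those of Ppat, Rasgef1b and Tmem50a became 1.74 ± 0.46, 2.07 ± 0.54 and 1.85 ± 0.53 (± SE). Measured from that median they were -1.03, -1.18 and -1.33 for the lower genes, and 0.99, 1.32 and 1.10 for the higher ones. Scaled by totals without mitochondrial genes and their nuclear copies, where the median moved to -0.21, the slopes were 0.80 for Ppat, 1.26 for Rasgef1b and 0.96 for Tmem50a, and -1.26 for Slc35d2, -1.39 for Apobec1 and -1.59 for Pheta1.

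**Figure D2:**
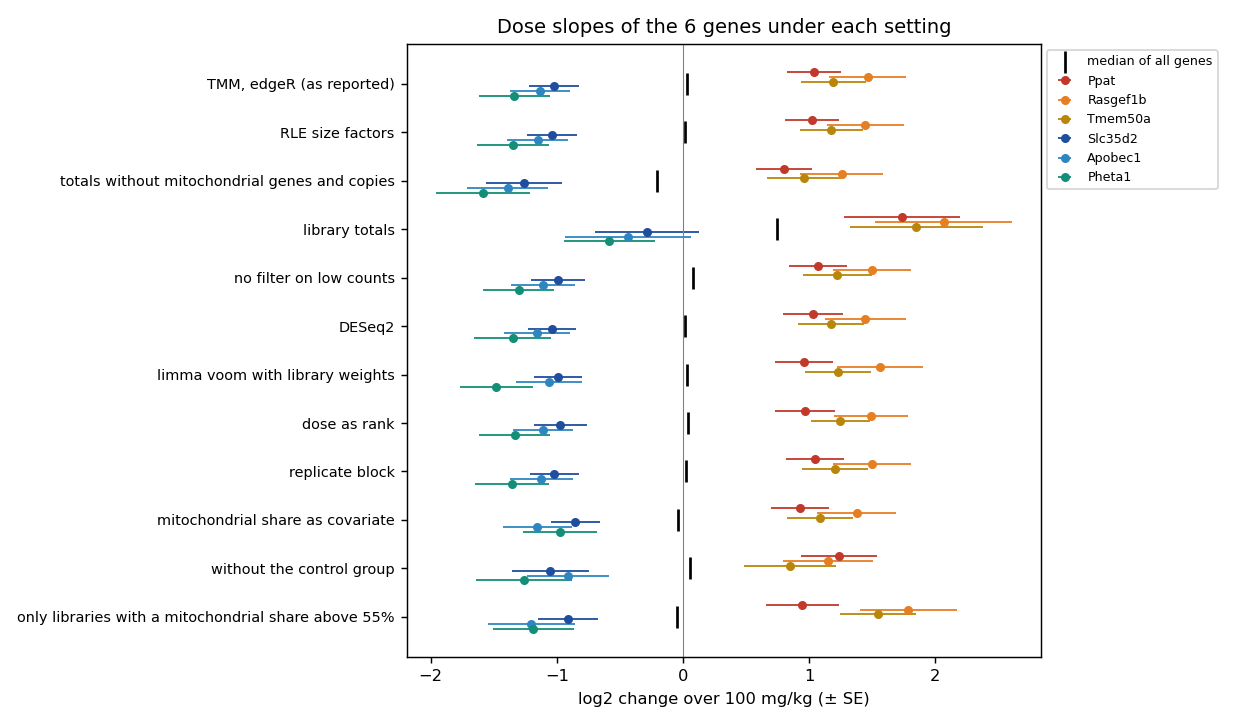
Slope on dose as a log2 change over 100 mg/kg with its SE (x axis) for the 6 genes under 12 settings (y axis), with black ticks at the median slope of all genes tested. Each gene keeps its sign in every setting shown, as largely follows from how the genes were chosen. With library totals all slopes shift upward together with the median of all genes, at 0.75.

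The mean mitochondrial share was lower at each higher dose. Since the genes were chosen on dose slopes over these libraries, part of each relation with the share may follow from that choice. The correlations of log2 CPM with the share are a description over 12 libraries. Pearson's r was 0.727 for Pheta1, 0.681 for Slc35d2 and 0.424 for Apobec1, and -0.599 for Ppat, -0.556 for Tmem50a and -0.523 for Rasgef1b. Spearman's rho was 0.72, 0.545, 0.28, -0.35, -0.392 and -0.427 in the same order. Without the 2 libraries farthest from the median share, high replicates 1 and 3, r was 0.598 for Pheta1, 0.284 for Slc35d2, -0.0949 for Apobec1, -0.14 for Ppat, -0.335 for Tmem50a and -0.293 for Rasgef1b, closer to 0 for each gene. In deviations from the group means, which remove the differences between doses, r was 0.621 for Pheta1, 0.577 for Slc35d2 and between -0.367 and -0.0765 for the others.

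With the share added to the fit, the slopes were 0.93 ± 0.23 for Ppat, 1.38 ± 0.31 for Rasgef1b, 1.09 ± 0.26 for Tmem50a, -0.85 ± 0.20 for Slc35d2, -1.15 ± 0.27 for Apobec1 and -0.98 ± 0.29 for Pheta1 (± SE). In the 8 libraries with a share above 55%, a limit chosen after the data were seen that leaves only high replicate 2 at the high dose, they were 0.95, 1.79, 1.55, -0.91, -1.20 and -1.19 in the same order of genes. Hepatocyte markers summed to 5102 CPM in high replicate 2 and to 44843 and 28748 CPM in high replicates 1 and 3, and their part in the 6 genes' values was not tested.

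**Figure D3:**
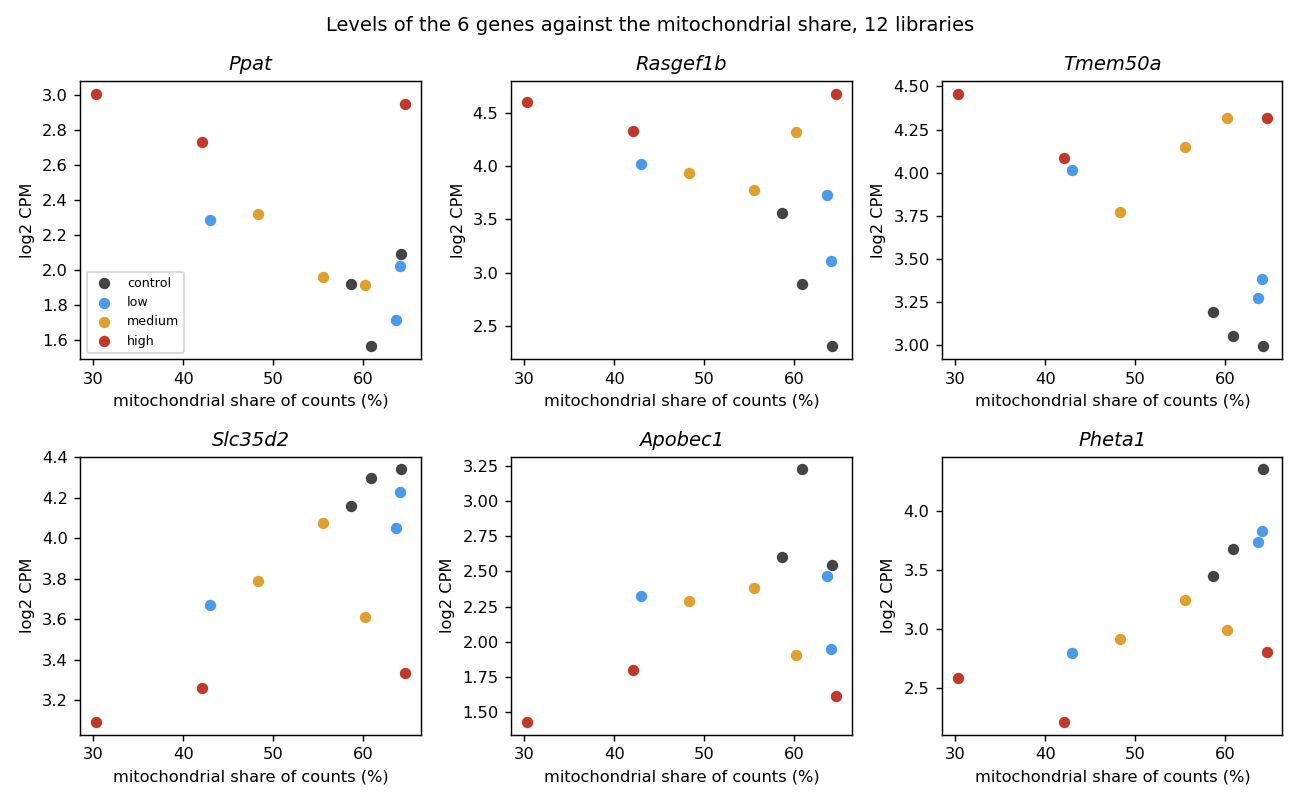
log2 CPM of the 6 genes (y axes) against the share of counts from mitochondrially encoded genes in percent (x axes), with 1 point for each of 12 libraries coloured by group. The high-dose library at 64.7% lies beside the controls in share, and the other 2 lie at 30.3% and 42.1%.

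Purine synthesis was examined because Ppat opens it. Of its 12 other measured genes 10 had a positive slope, with a median of 0.40 against 0.03 over all 16839 genes, of which 52.4% were positive, and none passed the adjusted threshold. Gmps, which makes GMP, had a slope of 0.87 ± 0.24 (adjusted p = 0.407 by edgeR) and averaged 7.74 ± 0.949 CPM in high and 3.94 ± 1.26 CPM in control livers. Paics, a bifunctional enzyme gene later in the pathway, had 0.72 ± 0.32 (adjusted p = 0.438 by edgeR) and Prps1, which makes the substrate of the Ppat enzyme, 1.11 ± 0.50 (adjusted p = 0.441 by edgeR). Gart and Pfas, which encode the enzymes of the next steps, were at 0.25 ± 0.23 and 0.18 ± 0.31. Ppat and Paics lie on opposite strands with RefSeq starts 276 bases apart, that of Paics inside Ppat, and in GENCODE M21 they share 272 of the 4421 exonic bases of Ppat. Paics held 33708 counts over all libraries and Ppat 3612, and no source used here states how counting treated strand, so part of the Ppat count may come from Paics reads. No other gene shared exonic bases with any of the 6, and no other transcript matched them at 95% identity or more over 150 bases or more.

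Purine salvage and breakdown genes (10 of 15 with a positive slope, median 0.35) and genes of one-carbon and glutamine supply (10 of 19, median 0.02) gave no call either. In the first of these Ampd3, an AMP deaminase gene, was at -0.98 ± 0.46, Nt5c2, a nucleotidase gene, at -0.67 ± 0.34 and Pnp, which encodes purine nucleoside phosphorylase, at 0.69 ± 0.36. In the second, Cad, which opens pyrimidine synthesis, was at 0.59 ± 0.22 and the serine hydroxymethyltransferase gene Shmt1 at -0.64 ± 0.25, with 43.3 ± 5.43 CPM in high and 74.4 ± 7.55 CPM in control livers.

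The relatives of Rasgef1b had slopes of both signs. Of 17 other RAS and RAP exchange factor genes 6 had a positive slope, with a median of -0.10. Rasgrp4, a factor of myeloid and mast cells, was at -1.51 ± 0.46 (adjusted p = 0.412 by edgeR), the lymphocyte factor gene Rasgrp1 at -1.07 ± 0.51 and Rapgef5 at 0.68 ± 0.34. The paralogs Rasgef1a and Rasgef1c did not pass the filter on low counts. Of 14 RAS and RAP GTPase genes 13 had a positive slope, with a median of 0.29, including Ralb at 0.64 ± 0.32, Rala at 0.58 ± 0.39, Rras at 0.68 ± 0.45 and Rap2a, whose product is a substrate of the human RASGEF1B protein, at 0.46 ± 0.32. The macrophage and Kupffer cell markers summed to 63.0 to 66.3 CPM in high livers, 50.6 to 62.7 CPM in medium, 46.0 to 62.7 CPM in low and 68.2 to 169.6 CPM in control livers, with 1 of 8 markers at a positive slope and 7 at a negative one. All 9 curcumin libraries were below the 3 controls in these markers, while among the curcumin doses the high libraries stood narrowly above the low and medium ones. Macrophages also transcribe Apobec1, and the part of macrophage content in the Rasgef1b and Apobec1 values was not tested.

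Tmem50b, the paralog of Tmem50a, was at -0.16 ± 0.19 (adjusted p = 0.737 by edgeR), with 3.51 ± 0.406 CPM in high and 3.95 ± 0.505 CPM in control livers. The closest paralog of Slc35d2, Slc35d1, was at -0.33 ± 0.23 (adjusted p = 0.576 by edgeR), with 34.9 ± 7.22 CPM in high and 40.9 ± 1.98 CPM in control livers. Of the 19 other measured SLC35 genes 14 had a positive slope and the median was 0.24. Slc35g1 was at 0.88 ± 0.38, Slc35e1 at 0.73 ± 0.35 and Slc35b3, a transporter of the sulfate donor, at -0.54 ± 0.26. Genes that make sugar nucleotides were split, 9 of 19 with a positive slope and 10 with a negative one, with a median of -0.02. On the positive side, Nans was at 1.23 ± 0.62 and Gne at 0.49 ± 0.25.

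Among the cofactors with which the Apobec1 enzyme edits RNA, A1cf was at -0.02 ± 0.24, Syncrip at 0.23 ± 0.21 and Rbm47 at 0.43 ± 0.28. Its substrate transcript Apob was at 0.18 ± 0.35, with 458.1 ± 209 CPM in high and 382.3 ± 70.3 CPM in control livers. The family member Apobec3, a restriction factor against retroviruses, had the next most negative slope in this list, -0.86 ± 0.32 (adjusted p = 0.434 by edgeR), with 2.85 ± 0.455 CPM in high and 5.85 ± 2.53 CPM in control livers, while Hnrnpab and Dnajb11 were at 0.84 ± 0.38 and 0.62 ± 0.33. In this list 6 of 9 genes other than Apobec1 had a positive slope, with a median of 0.20. The 4 measured A-to-I editing genes had a median of 0.01. Adat1 was at 0.14 ± 0.37, Adarb1 at 0.08 ± 0.26 and Adat2, with the widest slope among them, at -0.27 ± 0.96. Genes that handle apolipoprotein B in secretion and uptake were positive in 9 of 11 cases with a median of 0.80. The 3 with the smallest p were the secretory genes Sar1b at 1.15 ± 0.42, Surf4 at 1.36 ± 0.50 and Pdia3 at 1.36 ± 0.51, none of which passed (adjusted p = 0.434 each by edgeR). The spread of these 3 between high livers was large, as in Surf4 with 33.1 ± 24.9 CPM in high and 11.7 ± 1.43 CPM in control livers.

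The partners of Pheta1 had slopes of both signs. Of 9 other measured genes in the OCRL and APPL network 4 were positive, with a median of -0.06. Ocrl was at -0.22 ± 0.32, its relative Inpp5b at -0.37 ± 0.29, Appl1 at -0.32 ± 0.25, and the early endosome GTPase genes Rab5a, Rab5b and Rab5c at 0.47 ± 0.33, 0.71 ± 0.41 and 0.65 ± 0.34. The paralog Pheta2 did not pass the filter on low counts. Retromer and endosome recycling genes were positive in 15 of 25 cases with a median of 0.15, with Ehd3 at 1.10 ± 0.35, the retromer subunit gene Vps26b at 1.01 ± 0.41 and the sorting nexin gene Snx2 at -0.50 ± 0.19. Over the 13 lists together, 0 of 173 different genes other than the 6 passed by edgeR's quasi-likelihood test. DESeq2 and limma voom also gave 0. Of the 173, 13 had an unadjusted p under 0.05 on the higher and 6 on the lower side in edgeR. Over all 16839 genes tested the shares were 6.51% and 4.49%, so nothing is read from these counts.

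**Figure D4:**
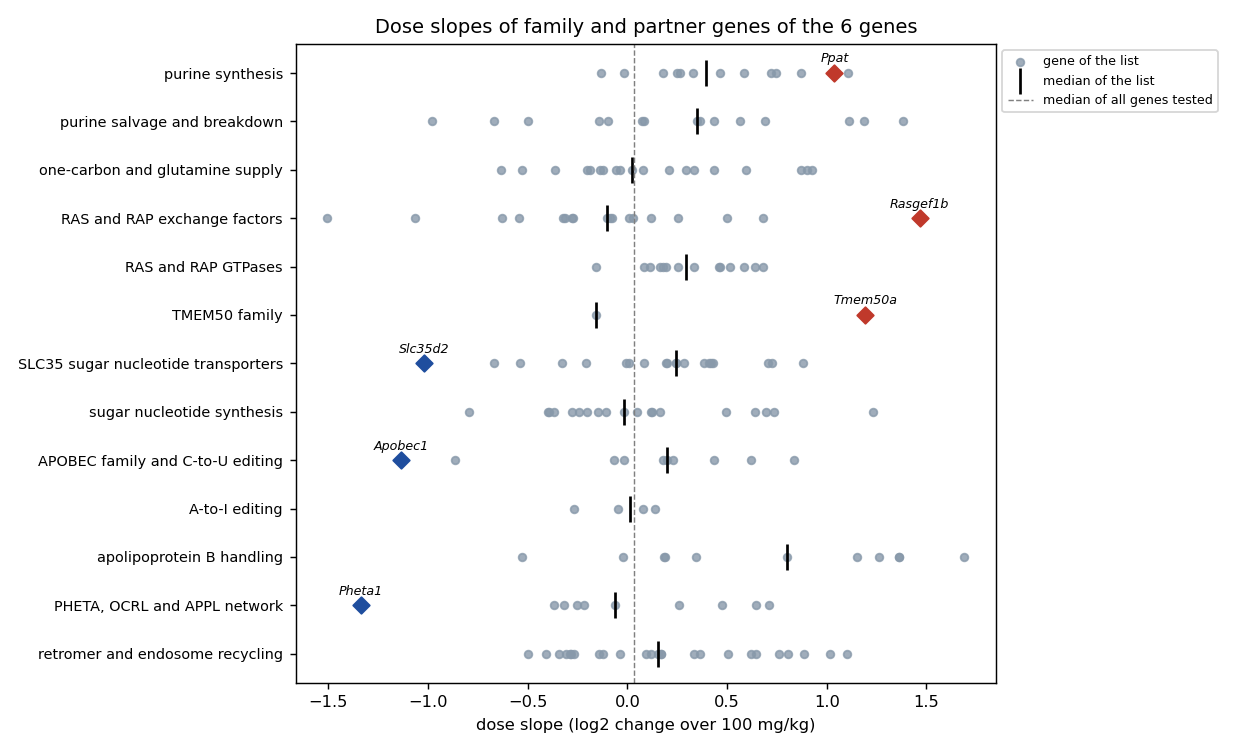
Dose slope as a log2 change over 100 mg/kg (x axis) of every measured gene in 13 lists (y axis): grey points are genes, black ticks list medians, diamonds the described genes and the dashed line the median of all genes tested. The diamonds lie at or near the edge of their own lists, as follows from how they were chosen.

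Neighbours on the chromosome had slopes of both signs. Of the 12 nearest measured genes on either side, in GENCODE M21 order, Paics beside Ppat (0.72 ± 0.32) was the one above 1 in mean log2 CPM that had an unadjusted p under 0.05. Aasdh on the other side of Ppat was at -0.55 ± 0.34. Hnrnpd beside Rasgef1b was at -0.16 ± 0.19, Maco1 and Rsrp1 beside Tmem50a at -0.16 ± 0.24 and -0.48 ± 0.42, Ercc6l2 and Zfp367 beside Slc35d2 at -0.31 ± 0.22 and -0.26 ± 0.25, and Sh2b3 and Cux2 beside Pheta1 at -0.41 ± 0.25 and -0.53 ± 0.67. Prkg2 beside Rasgef1b (-2.73 ± 1.20) and Gdf3 beside Apobec1 (2.26 ± 1.43) were close to the detection limit, and Gm8430 beside Apobec1 was at 0.65 ± 0.58. Ppat, Rasgef1b and Pheta1 lie on chromosome 5, Tmem50a on chromosome 4, Slc35d2 on chromosome 13 and Apobec1 on chromosome 6.

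The genes most alike in pattern were found by Pearson's r of log2 CPM over the 12 libraries, which share dose, depth and scaling, so r is a description. Ppat was most like Uba1 (r = 0.887), the gene of the main ubiquitin-activating enzyme, Ubqln1 (0.864), a ubiquitin-binding shuttle gene, and Rps4l (0.849). Rasgef1b was most like Trp53inp1 (0.928), a p53 target, Tnfrsf1b (0.92), a TNF receptor gene, and the kinase gene Mknk2 (0.918). Tmem50a was most like the phosphatase methylesterase gene Ppme1 (0.952), Foxo1 (0.933), a transcription factor restrained by insulin, and the corepressor gene Sin3b (0.917). Among the lower genes, Slc35d2 was most like Rassf6 (0.907), Pheta1 (0.90) and Rpap2 (0.899), Apobec1 most like Ypel2 (0.889), Tmem170b (0.875) and Ccdc9b (0.874), and Pheta1 most like Kank1 (0.958), Wdr81 (0.943) and Hfe2 (0.929), the hemojuvelin gene of iron control. Of these, Slc35d2 and Pheta1 were the one pair within the 6 that met the rule.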

How the data were processed

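RNA-seq of 12 mouse livers gave 1 table of gene counts, which the authors deposited as whole numbers that were not normalized, keyed by Ensembl ID. Per the submitters' processing notes, the build was mm39 and the tools named are StringTie 2.2.1, STAR 2.7.10b and fastp 0.23.4. The counting step and its use of strand: not given in the sources used here. Every one of the 12 columns could be tied to its sample. Symbols came from GENCODE M21 (52073 of 56923 IDs), which is for another build and served for names, transcript length, exon overlap and gene order only, so promoter windows are the only coordinates given.

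Genes passing edgeR's filterByExpr were fitted in R 4.3.3 with edgeR 4.0.16 (TMM, robust dispersion, quasi-likelihood F tests, Benjamini-Hochberg adjustment over all genes tested, threshold 0.05), with all 12 libraries in 1 fit, once with dose as a number and once with 4 groups. A standard error is the size of the log2 fold change divided by the square root of F. log2 CPM for correlations used a prior count of 2. DESeq2 1.42.0 and limma 3.58.1 (voom with library weights) were alternatives, beside 3 other scalings, no filter, dose as rank, a replicate block, the mitochondrial share as a covariate and leaving out libraries. Nuclear copies of mitochondrial genes (11, at 95% identity over 80% of their length) were found with BLAST+ 2.17.0. Permutation tests were two-sided with 100000 resamples. Simulated counts of the same 16839 genes tested the slope fit and gave 8 false calls. Known slopes were set only in genes averaging 1 or more in log2 CPM. Libraries of a group differed beyond sampling noise (lowest chi-square per degree of freedom 38.5), and 3 counts correspond to 0.0278 to 0.117 CPM. The labels call the replicates biological. In the fit with 4 groups, p-values set differences between doses against the spread between mice of a group. In the slope fit, the spread also holds departures of the group means from a straight line over dose. Since cage and group may coincide, the spread between mice of a group may leave out differences between cages.

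The 6 genes, the 13 lists and the tests were chosen with earlier results of these data known. Named besides the 6 are the 3 genes of each list with the smallest slope p, direct partners and paralogs, the nearest measured genes on either side, the 3 genes most alike in pattern to each, and the 3 further genes per direction with the smallest p, the last 2 kinds averaging 1 or more in log2 CPM, without predicted loci. Hsph1, Ip6k1 and Gm16559 fall outside this rule and were named after their values were seen. A gene that the rule names is not reported here.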

Additional observations from a re-analysis of the deposited data

How the results depend on the processing

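Each of the 6 slopes kept its sign under all 24 alternatives run (12 of them single libraries left out, and 2 added after seeing the data), and the call changed under 2 of them. The alternatives reuse the libraries on whose slopes the genes were chosen, so a kept sign largely follows from that choice and is a description. DESeq2 passed all 6 (Ppat 1.03, Rasgef1b 1.45, Tmem50a 1.17, Slc35d2 -1.04, Apobec1 -1.16, Pheta1 -1.35). It passed 67 genes on the slope and 42, 89 and 172 at the low, medium and high dose against control, where edgeR passed 0 each time; limma voom with library weights passed 0 on the slope and 0, 35 and 224. The cause was not tested. Leaving out both low replicate 3 and high replicate 2, an added choice, passed 1497 of the 17177 genes tested in that fit. Among them were 21 genes of the lists and all 6 (1.00, 1.52, 1.33, -1.10, -1.16 and -1.56 in the same order). The share then lay between 30.3% and 42.1% in high and between 58.6% and 64.2% in control livers, so that share and dose cannot be told apart in that fit. In the 8 libraries with a share above 55% 1 gene passed, Hsph1. With single libraries left out the slope count was 0, and the low-dose count ran from 0 to 2 (Ip6k1 and Gm16559, lower, without low replicate 3). With the replicate block the slopes were 1.05, 1.50, 1.21, -1.02, -1.12 and -1.36 and 0 genes passed. Same-numbered libraries had correlations of deviations from -0.257 to 0.445, with 5 of 18 pairs over 0.1. These values are a description, and whether same-numbered samples shared a batch was not tested. Over single libraries left out, slopes ran from 0.94 to 1.15 for Ppat, 1.25 to 1.63 for Rasgef1b, 1.10 to 1.36 for Tmem50a, -1.06 to -0.95 for Slc35d2, -1.24 to -0.92 for Apobec1 and -1.50 to -1.12 for Pheta1. In the simulated counts the gene-wide test missed most 2-fold changes. Whether this holds for these livers, with 3 mice per group, was not tested.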
